A study of Arabidopsis thaliana with 8 samples.

Results

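The genes examined here are 8 Arabidopsis homeobox genes of the KNOX and BELL families. They are the class I KNOX genes STM (AT1G62360), KNAT1 (AT4G08150), KNAT2 (AT1G70510) and KNAT6 (AT1G23380) and the BELL genes ATH1 (AT4G32980), BLR (AT5G02030), PNF (AT2G27990) and BEL1 (AT5G41410). The 8 were chosen by name, out of 27444 protein-coding genes on chromosomes 1 to 5, with earlier results of these data known. A gene table of assembly TAIR10.1 lists BLR, also called PENNYWISE or PNY, as RPL, and PNF as BLH8. The data are lists of DNA windows retained by tagged ALOG proteins in ampDAP-seq, an assay in which a protein made in vitro is mixed with amplified, bare genomic DNA, here of 2-week-old seedlings. Each list has 1 protein: LSH1, LSH2 or LSH3 of Arabidopsis, G1 of rice, LOS1 or LOS2 of the liverwort Marchantia, or TMF of tomato (species as background knowledge). An Input sample was not analysed here. A window was assigned to a gene when its centre lay in the gene or within 2000 bp of either end, and 71 of 116684 windows met this rule.

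KNOX and BELL proteins are homeodomain transcription factors of the TALE class, and a KNOX protein usually acts as a heterodimer with a BELL protein. Class I KNOX genes are active in the shoot meristem, where they keep cells undifferentiated, and are shut off where leaves and floral organs form. Partners such as ATH1, BLR and PNF act in the meristem, in stem growth and in the change to flowering, while BEL1 is known for ovule development. ALOG proteins act at meristems and organ boundaries, which are also sites of KNOX and BELL expression.

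All windows were 200 bp wide and carried no score, p-value or count, so read depth is unknown and a window is either in a list or not. Each list holds only peaks common to 3 replicates, per the series' design text, and no spread between replicates could be measured. List lengths differed, from 6902 windows for G1 to 29555 for LOS2, and a longer list has more chances to reach any gene. The intervals given below are 95% exact Clopper-Pearson intervals and cover counting error only. Strand and exons are not in the gene table, so positions are given as gene body or as the flank on the lower-numbered or higher-numbered side.

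Windows of the ALOG proteins lay at or near 7 of the 8 genes. KNAT6, BLR, PNF and BEL1 had windows of all 7 proteins, ATH1 of 6, STM of 5, KNAT2 of 4 and KNAT1 of none. Among all protein-coding genes, 22.6% had windows of all 7 proteins and 13.4% had no window, while 86.6% had a window of at least 1 protein. Because the 8 genes are long, from 3399 to 6394 bp with a median of 3521.5 bp against 2078 bp for all protein-coding genes, the 4424 protein-coding genes within this range of lengths form a closer comparison. Of those, 34.0% had windows of all 7 proteins, 95.8% had a window of at least 1 protein and 4.2% had none. The number of windows ran from 0 at KNAT1 through 6 at KNAT2, 8 at BEL1, 9 at STM, 10 at ATH1, 11 at PNF and 13 at BLR to 14 at KNAT6. Their median was 9.5 windows, beside 9 for protein-coding genes of like length and 6 for all protein-coding genes. Mean windows per gene were lower at the 8 than at genes of like length for LSH2 (1.5 against 1.90) and LSH3 (1.25 against 1.62). The same held for LOS1 (1.0 against 1.25), LOS2 (2.375 against 2.58) and TMF (0.875 against 1.23). Means were slightly higher for LSH1 (1.25 against 1.20) and G1 (0.625 against 0.613). These means include the 0 of KNAT1 and were not tested. The genes of like length were still longer than the 8, with a median of 4164 bp. Per kb of gene and flanks, the median was 1.27 windows at the 8, 1.14 at genes of like length and 0.932 at all protein-coding genes.

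**Figure D1:**
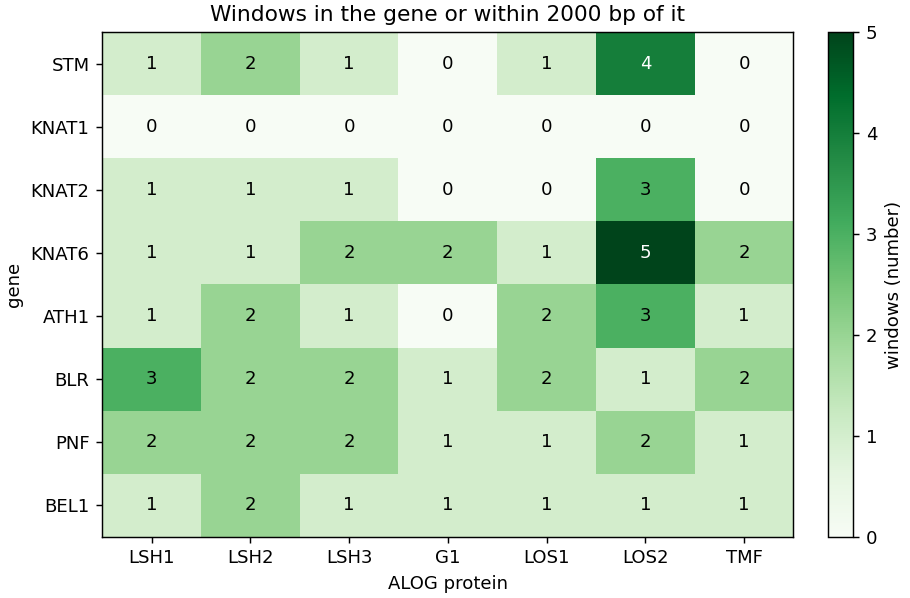
Number of windows of each ALOG protein (columns) in each gene or within 2000 bp of it (rows); darker green means more windows. The KNAT1 row holds only 0, and the highest value is the 5 LOS2 windows of KNAT6.

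Taken protein by protein, LSH1 had windows at 7 of the 8 genes (87.5%, interval 47.3 to 99.7%), against 67.4% of genes of like length and 53.3% of all protein-coding genes. LSH2 and LSH3 also reached 7 of 8, against 83.0% and 77.2% of genes of like length and 67.9% and 59.7% of all. LOS2 reached 7 of 8, against 90.2% of genes of like length and 77.6% of all. KNAT1 was the gene missing from each of these lists. LOS1 reached 6 of 8 (75.0%, interval 34.9 to 96.8%), against 69.4% of genes of like length and 53.6% of all, and lacked KNAT2 as well. TMF reached 5 of 8 (62.5%, interval 24.5 to 91.5%), against 69.5% and 52.8%, and G1 reached 4 of 8 (50.0%, interval 15.7 to 84.3%), against 44.0% and 32.7%. For all 7 proteins the interval of the 8 genes held both the share of genes of like length and that of all protein-coding genes. With 8 genes, chosen by name, these intervals are wide and set the 8 apart from neither share.

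**Figure D2:**
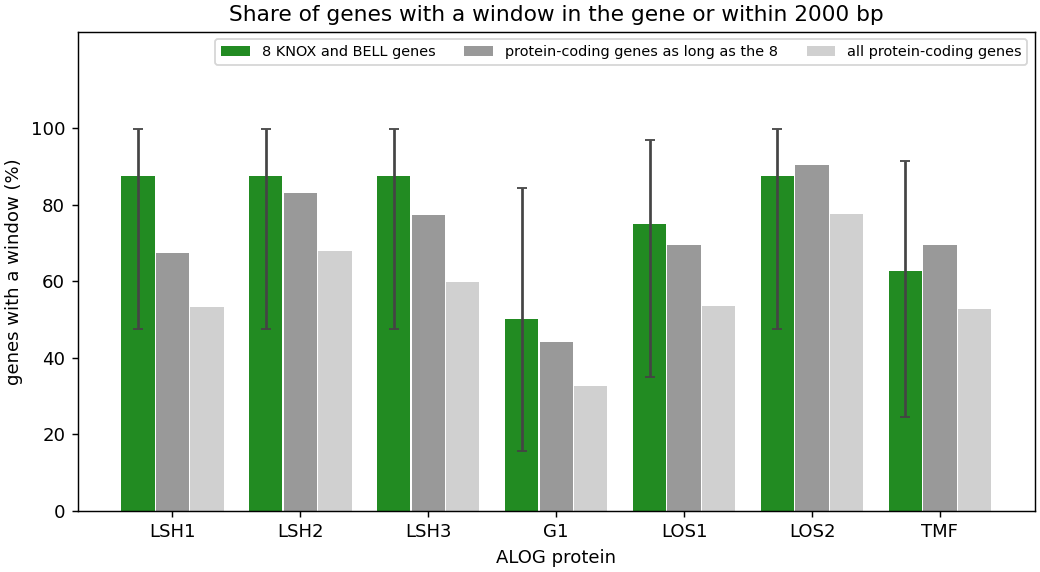
Share of genes (%) with a window of each ALOG protein in the gene or within 2000 bp, for the 8 KNOX and BELL genes (green, with 95% exact Clopper-Pearson intervals as error bars), for protein-coding genes as long as the 8 (dark grey) and for all protein-coding genes (light grey). The green bars run from 50.0% for G1 to 87.5% for LSH1, LSH2, LSH3 and LOS2. Each error bar is wide and spans the heights of both the dark and the light grey bar beside it.

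How many BELL and KNOX genes G1 and TMF reached depended on the interval. Windows of G1 lay at 3 of 4 BELL genes and 1 of 4 KNOX genes, and windows of TMF at 4 of 4 BELL genes and 1 of 4 KNOX genes. At the KNOX genes the single gene was KNAT6 for both proteins. LOS1 lay at 4 BELL genes and 2 KNOX genes, and LSH1, LSH2, LSH3 and LOS2 each at 4 and 3. KNAT1, without a window in this interval, lowers the KNOX count of every protein. With a flank of 1000 bp, G1 lay at 2 BELL genes and 1 KNOX gene and TMF at 3 and 1. With any overlap counted, G1 lay at 3 BELL and 2 KNOX genes and TMF at 4 and 2, and with a flank of 3000 bp G1 lay at 3 and 2 and TMF at 4 and 3. LOS2 had 7 of the 42 windows at the BELL genes (16.7%) and 12 of the 29 windows at the KNOX genes (41.4%), and its list makes up 25.3% of all windows. With 4 genes a class, these counts are a description and were not tested.

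Relative to list length, the number of windows at the 8 genes ran from 5.12 to 7.27 per 10000. Windows at the 8 genes numbered 7.27 per 10000 windows of the list for LSH1, 5.59 for LSH2 and 5.79 for LSH3, against 7.24 for G1, 5.69 for LOS1, 6.43 for LOS2 and 5.12 for TMF. The Arabidopsis proteins averaged 6.22 ± 0.92 (SD, n = 3) and the proteins of other plants 6.12 ± 0.92 (SD, n = 4), and the ranges overlapped. The difference of 0.0935 did not pass the test (p = 0.914 in an exact permutation test, two-sided, with 35 assignments and 0.0286 as its lowest possible p). The 7 proteins are not replicates of a condition, so this p describes the lists alone.

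Some windows of different proteins fell on the same stretch of DNA, while others stood alone. Merging windows that overlapped by at least 1 bp, over all lists, gave 26 regions at the 8 genes, 14 in gene bodies and 12 in flanks. Of these, 14 held a single protein (53.8%), against 40.2% of all regions near protein-coding genes. LOS2 was the single protein in 12 of the 14, LSH1 in 1 at BLR and LSH2 in 1 at BEL1. Over the genome, LOS2 was the protein in 70.1% of all single-protein regions. The 12 regions of several proteins comprised 5 with 3 proteins, 1 with 4, 1 with 5, 3 with 6 and 2 with all 7. Regions of all 7 proteins made up 7.86% of those near protein-coding genes, and regions of 5 or more proteins 26.2%, against 6 of the 26 here.

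**Figure D3:**
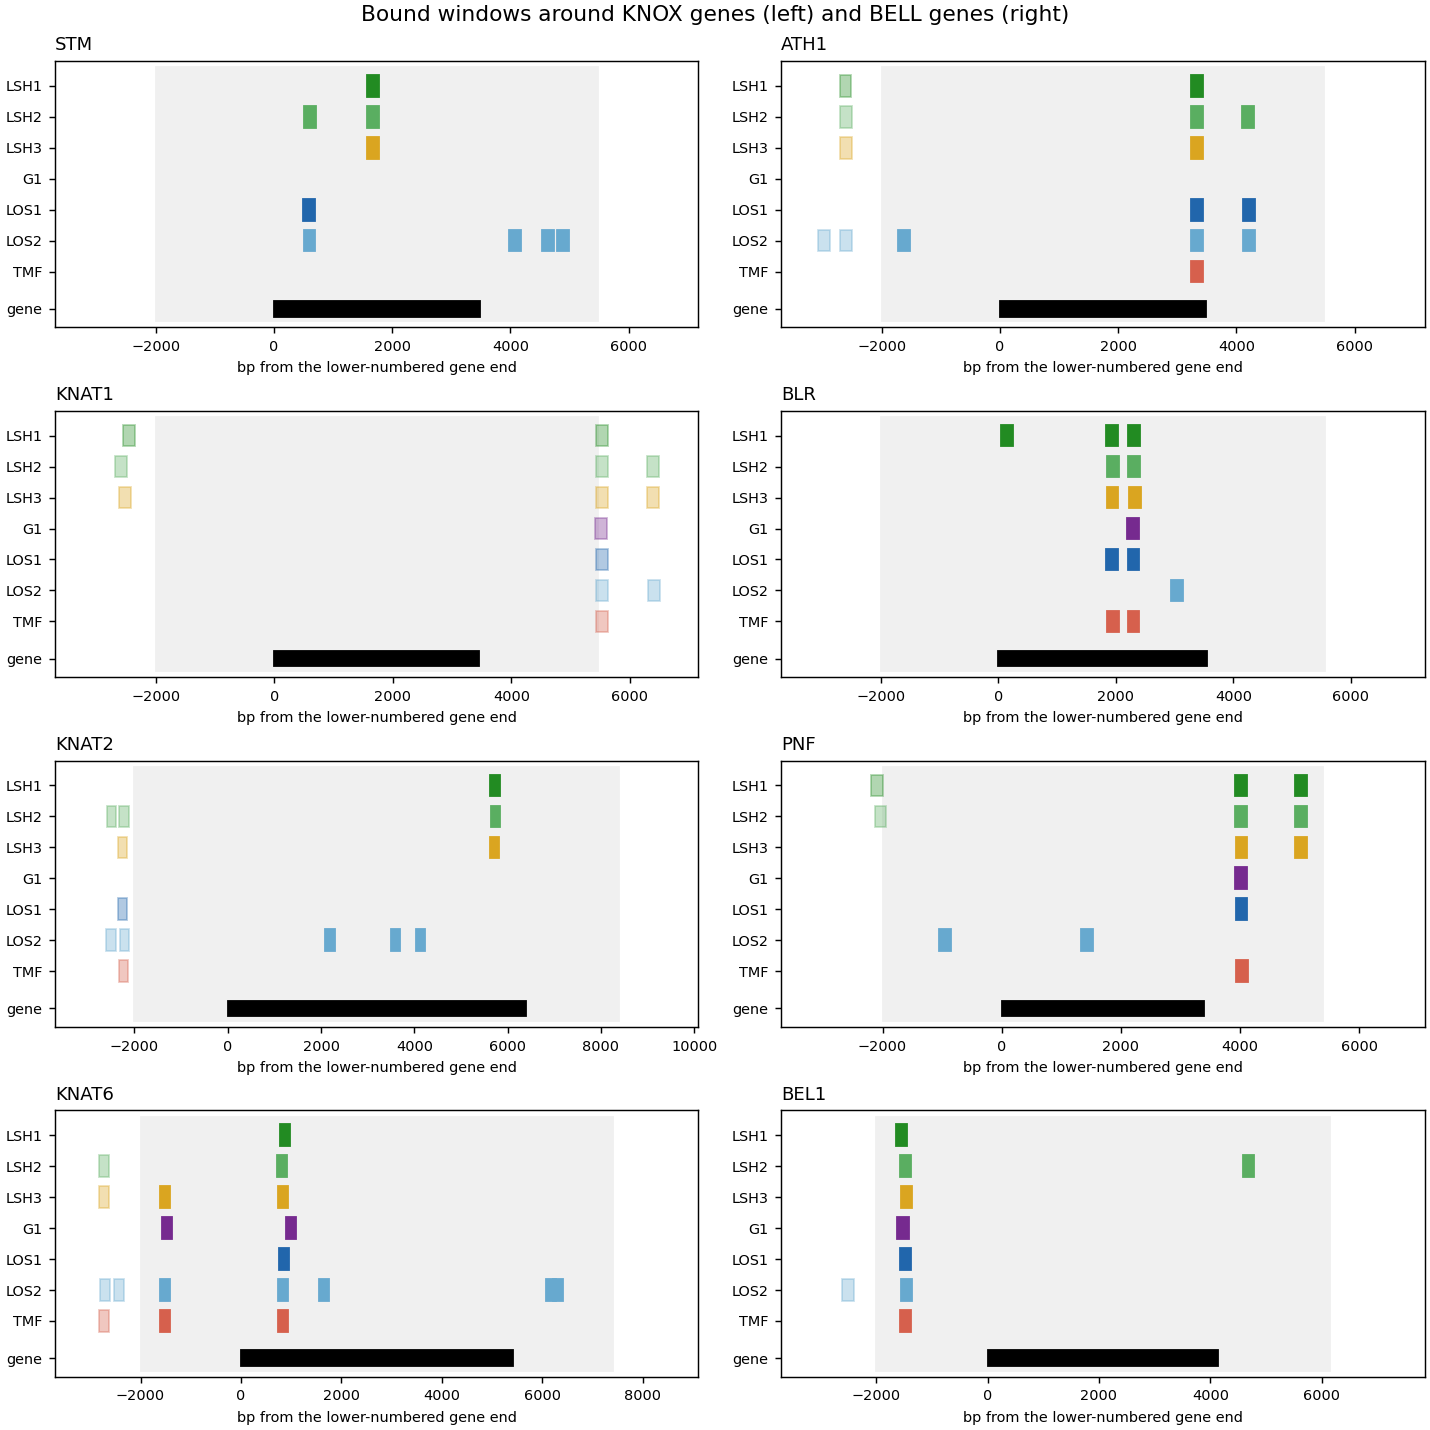
Windows of each ALOG protein (rows, coloured boxes 200 bp wide) around the KNOX genes (left column) and the BELL genes (right column), by distance in bp from the lower-numbered end of the gene (black bar). Grey shading marks the gene with 2000 bp on each side. Pale boxes are windows centred outside it and were not counted. The 7 pale boxes across the edge of the shading at KNAT1 are centred 2053 to 2074 bp from the gene, and the BLR windows all lie on the gene.

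STM, the KNOX gene required to form and keep the shoot meristem, had 9 windows in 5 regions. On chromosome 1, a region of LSH2, LOS1 and LOS2 lay in the gene body from 23059082 to 23059287, with the 3 window centres within 6 bp. A region of LSH1, LSH2 and LSH3 alone followed 1076 bp further on in the gene body, at 23060162 to 23060363, its centres within 2 bp. LSH2 was the protein common to both. The other 3 regions held LOS2 alone and lay in the higher-numbered flank, 591, 1152 and 1416 bp from the gene. G1 and TMF had no window within 2000 bp of STM.

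KNAT1, also called BREVIPEDICELLUS and known for its part in stem and pedicel growth, had no window of any protein in the gene or within 2000 bp. This absence rests on the distance chosen. A region of all 7 proteins was centred just outside, on chromosome 4 at 5153113 to 5153333. Its G1 window was centred 2053 bp from the gene, TMF 2067 bp, LSH3 2069 bp, LSH1 and LOS2 2071 bp, LOS1 2073 bp and LSH2 2074 bp. The 7 centres spanned 21 bp, and no annotated gene lay at that point. Counting any overlap of a window with the same interval in place of its centre, or extending the flank to 3000 bp, moved KNAT1 to windows of 7 proteins. On the lower-numbered side the nearest region held LSH1, LSH2 and LSH3 alone, centred 2522 bp from the gene at 5145007 to 5145342. The gene body itself held no window under any of these settings.

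KNAT2 and KNAT6, paralogous KNOX genes of meristem and boundary that are known to be held in check by BLR in the inflorescence, differed from each other. KNAT2, the longest of the 8 genes at 6394 bp, had 6 windows, all in the gene body. Of its 4 regions 3 held LOS2 alone, and the fourth, from 26582110 to 26582331 on chromosome 1, held the 3 LSH proteins and no other. KNAT6 had 14 windows in 4 regions and was reached by every protein. Its gene body held a region of all 7 proteins on chromosome 1 at 8297964 to 8298336, and LOS2 alone lay in another gene body region 803 bp further on and in the higher-numbered flank, where 2 LOS2 windows overlapped each other.

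The KNAT6 region of all 7 proteins was wide. The centres of LSH2, LOS2, LSH3, TMF and LOS1 fell at -21 to 9 bp from the median centre, LSH1 at 43 bp and G1 at 152 bp. The resulting span of 173 bp was reached or exceeded by 6.94% of all regions of 7 proteins. When windows had to overlap by 100 bp to be merged, the G1 window of KNAT6 was no longer part of the region. The other region shared at KNAT6, at 8295629 to 8295867, held LSH3, G1, LOS2 and TMF, a combination found in 13 of all 39850 regions. It lay in the body of the neighbouring gene MENG (AT1G23360), so it cannot be assigned to KNAT6 by position alone.

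ATH1, a BELL gene that keeps the rosette stem short and acts at the base of organs, had 10 windows in 3 regions. The gene body held a region of every protein but G1, on chromosome 4 at 15917899 to 15918109, with 6 centres within 11 bp. The nearest G1 window was 7083 bp away. Regions of every protein but G1 were common, 2775 of all regions (6.96%). A region of LSH2, LOS1 and LOS2, the same combination as at STM, lay 874 bp further on, in the higher-numbered flank at 15918770 to 15918990. That combination made up 1019 of all regions (2.56%). The last region held LOS2 alone, 1630 bp from the gene and within the body of its neighbour AT4G32970.

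BLR, which partners STM and KNAT1 and is needed for normal stem growth, flowering and fruit patterning, had 13 windows, all in the gene body. The count comprised 3 windows of LSH1, 2 each of LSH2, LSH3, LOS1 and TMF, and 1 each of G1 and LOS2. Neighbouring regions 360 bp apart held most of them. The first, on chromosome 5 at 397405 to 397614, held LSH1, LSH2, LSH3, LOS1 and TMF with centres within 10 bp, and the second, at 397757 to 397994, held the same 5 proteins and G1 with centres within 38 bp. LOS2, the longest list, was in neither. Its only window at BLR stood alone, centred 734 bp from the second region and 1094 bp from the first. LSH1 alone also had a window near the lower-numbered end of the gene, at 395609 to 395808.

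PNF, the close paralog of BLR with which it shares its role in flowering, had 11 windows, of which 1 was in the gene body. Its main region lay in the higher-numbered flank on chromosome 2 at 11925263 to 11925477, centred 626 bp from the gene. It held every protein but LOS2 with 6 centres within 15 bp, and the nearest LOS2 window was 2593 bp away. All proteins but LOS2 is thus the combination of both the second BLR region and the main PNF region, and 183 of all 39850 regions (0.459%) had it. A further region 998 bp on, at 11926270 to 11926474, held LSH1, LSH2 and LSH3 alone with centres within 5 bp. LOS2 was present at PNF as a single protein in the gene body and 953 bp into the lower-numbered flank. PNF therefore counted as reached by all 7 proteins although none of its regions held all 7.

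BEL1, which specifies the integuments of the ovule, had 8 windows, none of them in the gene body. The windows of all 7 proteins formed 1 region in the lower-numbered flank, on chromosome 5 at 16578297 to 16578587. LOS1, TMF, LSH2, LOS2 and LSH3 were centred 1470 to 1449 bp from the gene, while G1 lay at 1515 bp and LSH1 at 1540 bp. The median span over all regions of 7 proteins was 23.5 bp, and 11.7% of them had a span at least as wide as the 91 bp at BEL1. LSH2 had a second window alone, 548 bp from the gene on the other side. With a flank of 1000 bp only this LSH2 window was counted, which left BEL1 with 1 protein.

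**Figure D4:**
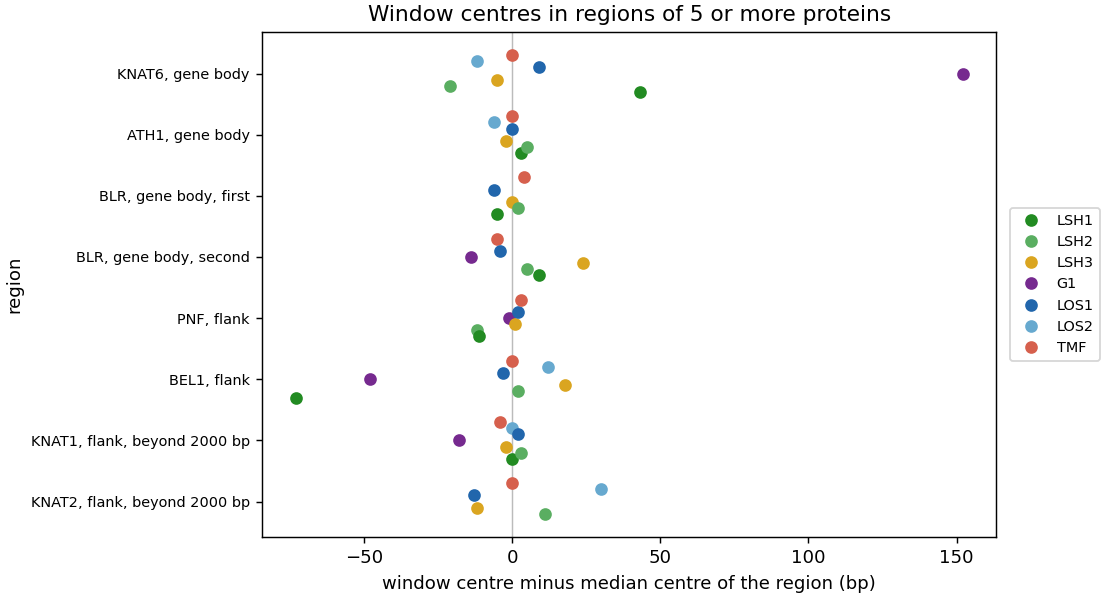
Position of each protein's window centre relative to the median centre of its region (bp), for the 6 counted regions of 5 or more proteins and for the 2 such regions beyond 2000 bp, at KNAT1 and KNAT2. Most centres lie close to 0; the G1 window of KNAT6 stands at 152 bp, and the LSH1 and G1 windows of BEL1 at -73 and -48 bp.

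Certain combinations recurred among the 8 genes. LSH1, LSH2 and LSH3 alone held 3 regions, at STM, KNAT2 and PNF, and 1 more lay at KNAT1 beyond 2000 bp. Over the genome 1261 regions (3.16%) had this combination, and regions with the 3 LSH proteins and neither LOS protein, whatever else they held, made up 4.78% of those near protein-coding genes. None of the 26 regions at the 8 genes held both LOS proteins without an LSH protein, a class of 913 regions over the genome (2.29%). With so few regions, the absence of so rare a class was not read as a result. Each region of LOS1 at the 8 genes, 8 in number, was also held by LSH2, as were 87.2% of all LOS1 regions. LSH1 and LSH2 shared 9 of 10 LSH1 regions, against 74.5% of all LSH1 regions.

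Many LOS2 windows at these genes stood alone. LOS2, the longest list, held 18 of the 26 regions, more than any of the other 6 proteins. Over the genome it held 29174 of all 39850 regions. At the 8 genes LOS2 was the only protein in 12 of its 18 regions, against 38.7% of all LOS2 regions. Conversely it was absent from 3 of the 6 regions of 5 or more proteins, those of BLR and PNF, whereas 5.53% of all 10409 such regions lacked it. Of the 8 regions of LOS1, 5 also held LOS2, beside 93.0% of all LOS1 regions, and of the 7 regions of TMF, 4 did, beside 87.6%. In both cases the regions without LOS2 were the same 3 of BLR and PNF, so these are not separate observations. G1 was absent from 2 of the 6 regions of 5 or more proteins, the first of BLR and that of ATH1, against 59.0% of all such regions. These region counts come from few genes, with 2 regions in BLR alone, and were not tested.

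Other genes of the same families varied as widely. Of 5 further KNOX genes, which comprise the class II genes and KNATM, a KNOX gene without a homeodomain, KNAT4 and KNATM had windows of all 7 proteins and KNAT5 of none. Among 9 further BELL genes, BLH6 and BLH7 had windows of all 7, and BLH3 and BLH11 had none. The median number of proteins was 6.5 for the 8 genes, 6 for the further KNOX genes and 3 for the further BELL genes. It was 6 for protein-coding genes as long as the 8 and 5 for all protein-coding genes. That range of lengths comes from the 8, and the further genes were not matched to it. Of 7 genes that regulate KNOX genes or act with them at boundaries, AS2, which helps to keep KNOX genes off in leaves, had windows of all 7 proteins and BOP2 of none. The 6 genes of KNOX output and partner proteins had no window of G1, which 32.7% of all protein-coding genes had, and each had a window of at least 1 protein, as did 86.6% of all. In this group IPT7, a cytokinin synthesis gene, had windows of LSH1, LSH2 and LSH3 alone, and GA20OX1, a gibberellin synthesis gene, had 18 windows of 6 proteins. Both are named after their values were seen, and other genes of the group differed, such as OFP1 with LSH1 and LOS2 only. The 6 proteins at GA20OX1 are those at ATH1, a set that 12.9% of other protein-coding genes had.

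Genes with the same number of windows for each of the 7 proteins were looked for among 27436 other protein-coding genes. For STM 3 such genes were found, the closest in length being AT5G46390 and AT3G07255. BLR had 2, AT3G48030 and OPS. KNAT2 had 12, with TWN2 and TPPI closest in length, ATH1 22, with AT1G56460 and AT2G20170, PNF 38, with AT3G18240 and IQD13, and BEL1 48, with NET1C and AT1G73600. No gene had the same 7 counts as KNAT6. The closest, AT1G33265, differed by 1 window in all, and AT2G31810 by 2. KNAT1 shared its lack of windows with 3687 genes, of which AT4G02320 and AT5G36790 were closest in length.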

How the data were processed

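Each of the 7 deposited lists gives chromosome, start and end of bound windows. Per the series' design text the authors kept peaks found in all 3 replicates, and the submitters' processing notes name Bowtie2, SAMtools and MACS2 with no version. Neither thresholds nor a genome build are stated in the labels. Gene names and neighbours came from a RefSeq table of assembly TAIR10.1, in which all 35 genes of the lists used matched. As a check of the build, 71.1% of windows lay in protein-coding genes as deposited, against 67.4% after shifts of 1000 bp either way. Window coordinates are counted from 1. No genome sequence was used here, so no sequences are shown.

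Windows were assigned by their centre, with flanks of 2000 bp. Windows overlapping by at least 1 bp were merged into regions over all lists. Genes named are the 8 members, genes of the other lists with windows of all 7 proteins or of none, with IPT7 and GA20OX1 named after their values were seen, and for each member the 2 genes with the smallest summed difference in window counts, ties going to length. The members and lists were chosen with earlier results of these data known. Alternatives were flanks of 1000 and 3000 bp, any overlap, merging at 100 bp, background genes of like length and leaving out G1 or LOS2. Python 3.11.15, numpy 2.4.6, pandas 2.3.3, scipy 1.17.1 and matplotlib 3.10.9 were used, and counting and merging were tested on simulated windows.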

Additional observations from a re-analysis of the deposited data

How the results depend on the processing

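The number of regions held by all 7 proteins at the 8 genes, 2, was 1 with a flank of 1000 bp, which leaves out the BEL1 region, and 1 when merging needed 100 bp of overlap, which separates the G1 window of KNAT6. It was 3 with a flank of 3000 bp, which adds the KNAT1 region, 3 without G1 and 4 without LOS2, an alternative chosen after seeing the data. KNAT1 had windows of 7 proteins instead of 0 with a flank of 3000 bp or any overlap, and BEL1 of 1 instead of 7 with a flank of 1000 bp. The counts of genes reached by each protein stayed within 1.5 times their value under all 3 alternative intervals, and regions at the 8 genes numbered 20 to 37. The difference between LSH and other proteins ran from 0.274 to 1.43 windows per 10000, with exact permutation p from 0.171 to 0.686. No paired analysis was possible because each protein has 1 list. Read depth is unknown, so a missing window cannot be told apart from one that fell below the authors' threshold.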

Other observations

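Between 2000 and 3500 bp from the 8 genes lay 11 further regions, at 6 of the genes. Beside the KNAT1 region of all 7 proteins, KNAT2 had a region of LSH2, LSH3, LOS1, LOS2 and TMF on chromosome 1 at 26574136 to 26574378, centred 2238 bp from the gene. KNAT2 would be reached by LOS1 and TMF only through this region. ATH1 had a region of LSH1, LSH2, LSH3 and LOS2 at 15911956 to 15912165, a combination of 152 regions over the genome, inside its neighbour AT4G32970. At PNF a region of LSH1 and LSH2, centred 2064 bp from the gene, lay in the body of AT2G27980. STM and BLR had no region in this range.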
